A study of Homo sapiens with 6 samples.

Results

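The subunits of the chromatin remodeling complexes BAF and PBAF were followed in Caki2 cells with and without re-expressed PBRM1. The members were 10 genes picked by symbol from the 25369 genes counted. They were the PBAF-specific subunits PBRM1, ARID2, BRD7 and PHF10, the BAF-specific subunits ARID1A and ARID1B, and the shared subunits SMARCA4, SMARCA2, SMARCC2 and SMARCD3. All 10 members passed the filter on low values, which asked for a normalized count of 10 or more in 3 or more samples and kept 13303 genes.

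BAF and PBAF are large multi-subunit machines that use ATP to slide or evict nucleosomes. Each complex carries a single ATPase, SMARCA4 (BRG1) or its paralogue SMARCA2 (BRM), on a core of SMARCC, SMARCD and other subunits. ARID1A or ARID1B marks BAF, whereas ARID2, PBRM1, BRD7 and PHF10 mark PBAF. PBRM1 (BAF180) holds several bromodomains, modules that bind acetylated lysines on histones, and is a tumor suppressor frequently lost in clear cell renal cell carcinoma (ccRCC).

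Caki2 cells, a ccRCC line, have lost PBRM1 protein. One stable line held an empty doxycycline-inducible lentiviral vector (Caki2+Vector) and the other the same vector with full-length PBRM1 (Caki2+PBRM1). Both received doxycycline at 2 µg/ml, so the drug was shared by the groups. From each, 3 replicates (A, B and C), which the authors call biological, were sequenced as poly(A) RNA. Each group was 1 stable line, so an effect of PBRM1 and a difference between the lines cannot be told apart. Values are normalized counts, that is, reads on a gene divided by a size factor for the sample. Protein was not measured in these files.

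Depth ranged from 7312955 to 10835355 reads on genes per sample. Caki2+Vector replicate A stood apart from the other samples: its chi-square per degree of freedom was 3.09 against replicate B and 2.84 against replicate C, while the other replicate pairs gave 1.19 to 1.34. PAX8, a renal epithelial transcription factor, was at 1888 to 2190 in all 6 samples, whereas PAX2 was at 20.4 to 34.0. CA9, a hypoxia-induced ccRCC marker, was at 0 to 2.8 in Caki2+Vector and at 6.7 to 15.2 in Caki2+PBRM1. Among the epithelial and mesenchymal markers, VIM (log2 fold change 0.18) rose, and KRT8 (-0.18) and KRT18 (-0.34) fell. The leukocyte markers PTPRC and CD3E and the endothelial markers PECAM1 and VWF reached at most 5.7. The part of the marker changes in the subunit values was not tested.

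Several members are paralogues, so their longest identical coding stretches are shown, because a read that fits entirely within such a stretch could not be assigned to a single gene. The stretches, in lower case throughout since every base is shared, were read from GRCh37 with GENCODE coding exons.
SMARCA2 and SMARCA4: gagaagctggagaagcagcagaagat
ARID1A and ARID1B: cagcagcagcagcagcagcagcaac
SMARCC1 and SMARCC2: ttcaatgaatggatgaatgagga
SMARCD1 and SMARCD3: gaagatggctgacaaaat
BRD7 and BRD9: atgggcaagaagcacaagaagcacaag
The 26 bases shared by the ATPases lie in exon 7 of 34 of SMARCA2 (chr9:2056786-2056811, plus strand) and exon 8 of 35 of SMARCA4 (chr19:11101940-11101965, plus strand). The 25 bases shared by ARID1A (chr1:27100183-27100207, plus strand, exon 16 of 20) and ARID1B (chr6:157099403-157099427, plus strand, exon 1 of 20) are a CAG repeat. SMARCC1 (chr3:47752243-47752265, minus strand) and SMARCC2 (chr12:56575564-56575586, minus strand) share 23 bases of exon 9. SMARCD1 (chr12:50480416-50480433, plus strand) and SMARCD3 (chr7:150940758-150940775, minus strand) share 18 bases of exon 3. BRD7 (chr16:50402659-50402685, minus strand) and BRD9 (chr5:892746-892772, minus strand) share 27 bases of exon 1. Over the 7 paralogue pairs examined the longest stretch was 18 to 27 bases, below the read length of 100 bases.

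PBRM1 mRNA was 13.6 times as high in Caki2+PBRM1 as in Caki2+Vector, and ARID2 and SMARCC2 fell by 14.3% and 14.1%. SMARCD3 rose by 43.6%. In bulk RNA, fewer cells with a transcript and less of it per cell cannot be told apart. The other 6 members, BRD7, PHF10, ARID1A, ARID1B, SMARCA4 and SMARCA2, did not pass the test (limma's moderated test with Benjamini-Hochberg adjustment over all genes, adjusted p under 0.05), and their log2 fold changes ran from -0.12 to 0.10. The 95% intervals of these 6 spanned from a decrease of 16.2% to an increase of 16.9%, so small changes of these members in either direction remain possible. Thus 2 of 10 members were called higher and 2 of 10 lower, against 16.2% of all genes tested called higher and 13.0% called lower. The groups did not overlap for 5 members that were higher and 2 that were lower in Caki2+PBRM1, against 22.1% and 19.6% of all genes tested. PBRM1 was the introduced gene, so its rise was set by the design. Of the 9 other members, 1 was called higher and 2 lower, and the groups did not overlap for 4 that were higher and 2 that were lower. The median absolute log2 fold change was 0.11 over the members and 0.14 over all genes tested.

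**Figure D1:**
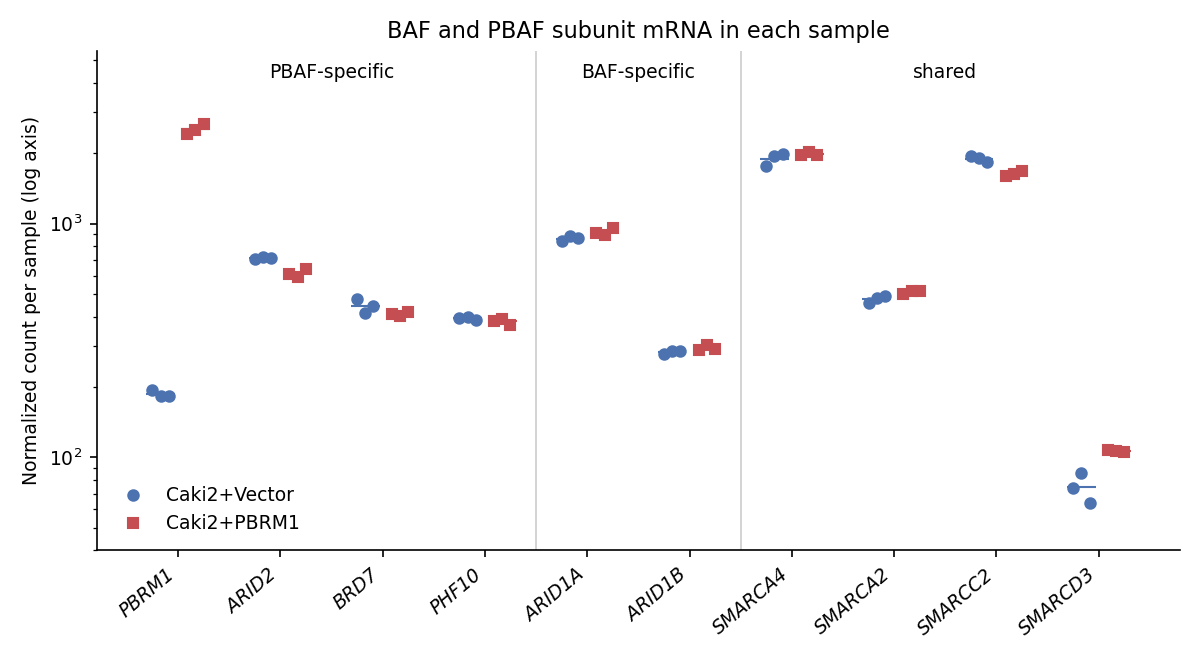
Normalized count (log axis) of the 10 members in each of 3 Caki2+Vector samples (blue circles) and 3 Caki2+PBRM1 samples (red squares), with a line at the mean of each group. PBRM1 is separated by more than 10 times, and ARID2 and SMARCC2 sit lower and SMARCD3 higher in all 3 Caki2+PBRM1 samples. The remaining members lie close together, although ARID1A, ARID1B and SMARCA2 are also slightly higher without overlap.

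PBRM1 lies at chr3:52579368-52719933 on the minus strand of GRCh37. Its normalized count was 195.0, 182.3 and 182.2 in the Caki2+Vector samples and 2432, 2521 and 2682 in the Caki2+PBRM1 samples. No Caki2+Vector sample came near any Caki2+PBRM1 sample. The log2 fold change was 3.76 (SE 0.06, limma adjusted p = 3.33e-29). The library counts were 152 to 206 reads in Caki2+Vector, which is labelled as having no PBRM1 expression, and 2245 to 3196 reads in Caki2+PBRM1. PBRM1 RNA was thus present in the vector line, at 0.00207% to 0.00224% of the reads on genes, and at 0.0267% to 0.0295% in Caki2+PBRM1. Reads from the inserted PBRM1 and from the gene's own locus were counted together and cannot be told apart in these values. PBRM1 shares 146 exon bases with SMIM4 on the opposite strand, although none in the canonical transcripts, and SMIM4 had a log2 fold change of -0.23 (limma adjusted p = 0.312).

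The promoter windows of PBRM1 and SMARCD3, the members that rose, are shown from RefSeq (GRCh38.p14), each from 250 bases before a start to 50 bases after it. Capitals mark matches to the E-box CACGTG, to the GC box GGGCGG and to the TATA box, spelled TATAAA, each searched on both strands with overlapping matches allowed. ARID2 and SMARCC2, the members that fell, had no entry. The inserted PBRM1 is driven by the vector and not by its own promoter.
PBRM1 chr3:52685864-52686163, minus strand: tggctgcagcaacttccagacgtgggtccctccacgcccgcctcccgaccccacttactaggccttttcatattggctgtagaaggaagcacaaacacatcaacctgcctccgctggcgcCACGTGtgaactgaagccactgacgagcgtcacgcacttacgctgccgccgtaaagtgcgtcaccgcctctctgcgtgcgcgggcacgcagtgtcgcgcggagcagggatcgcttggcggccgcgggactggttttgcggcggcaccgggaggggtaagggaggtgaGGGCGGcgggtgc
PBRM1 chr3:52685550-52685849, minus strand: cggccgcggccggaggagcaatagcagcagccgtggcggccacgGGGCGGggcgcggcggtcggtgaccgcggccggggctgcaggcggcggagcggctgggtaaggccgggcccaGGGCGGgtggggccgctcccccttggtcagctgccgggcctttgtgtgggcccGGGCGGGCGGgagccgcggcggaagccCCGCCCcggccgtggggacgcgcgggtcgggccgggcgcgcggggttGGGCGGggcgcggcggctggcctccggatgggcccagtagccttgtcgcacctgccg
SMARCD3 chr7:151277100-151277399, minus strand: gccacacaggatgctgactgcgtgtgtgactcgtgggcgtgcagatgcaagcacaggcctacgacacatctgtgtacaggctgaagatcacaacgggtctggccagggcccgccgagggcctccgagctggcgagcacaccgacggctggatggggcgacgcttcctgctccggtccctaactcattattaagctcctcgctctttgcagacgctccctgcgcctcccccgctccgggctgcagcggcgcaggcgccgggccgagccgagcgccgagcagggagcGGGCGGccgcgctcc
SMARCD3 chr7:151276685-151276984, minus strand: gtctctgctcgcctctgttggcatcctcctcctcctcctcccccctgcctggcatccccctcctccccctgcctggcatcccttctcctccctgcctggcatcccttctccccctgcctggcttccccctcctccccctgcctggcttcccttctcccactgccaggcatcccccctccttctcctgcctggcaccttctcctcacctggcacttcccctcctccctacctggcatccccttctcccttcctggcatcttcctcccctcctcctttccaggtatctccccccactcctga
SMARCD3 chr7:151248645-151248944, minus strand: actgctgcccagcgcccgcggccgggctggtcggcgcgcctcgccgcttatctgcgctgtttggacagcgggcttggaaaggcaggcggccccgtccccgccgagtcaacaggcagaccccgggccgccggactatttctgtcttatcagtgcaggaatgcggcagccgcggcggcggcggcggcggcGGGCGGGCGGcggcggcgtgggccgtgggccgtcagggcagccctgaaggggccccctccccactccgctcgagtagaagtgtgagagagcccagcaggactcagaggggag
The first PBRM1 window held 1 CACGTG and 1 GGGCGG, and the second held 6 GGGCGG. The SMARCD3 windows held 1, 0 and 2 GGGCGG and neither of the other motifs. The 8 members with an entry had 16 windows in all, of which 10 held GGGCGG, 1 held CACGTG and 1 held TATAAA. Over all 35116 windows the shares were 45.0%, 7.3% and 11.5%. The gene counts do not show which start was used.

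ARID2 (BAF200), the ARID subunit that sets PBAF apart from BAF, lies at chr12:46123489-46301823 on the plus strand. Its normalized count was 706.2, 723.7 and 715.5 in Caki2+Vector and 608.7, 592.0 and 637.9 in Caki2+PBRM1. All 3 Caki2+PBRM1 samples were below all 3 Caki2+Vector samples. The log2 fold change was -0.22 (SE 0.06, limma adjusted p = 0.0025), with a 95% interval from -0.34 to -0.11. Without Caki2+Vector replicate A it was -0.23 (limma adjusted p = 5.74e-04).

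BRD7, a bromodomain subunit of PBAF, was at 477.1, 416.6 and 445.9 in Caki2+Vector and at 409.4, 404.4 and 417.1 in Caki2+PBRM1. The groups overlapped, since Caki2+Vector replicate B was below Caki2+PBRM1 replicate C. The log2 fold change was -0.12 (SE 0.07, limma adjusted p = 0.186), and it was -0.07 without Caki2+Vector replicate A. On log2(CPM + 1), without size factors, BRD7 was called lower (-0.17, limma adjusted p = 0.0456). BRD7 shares 3593 bases of exon with ADCY7 on the opposite strand, of which 2179 lie in the canonical transcripts. The counting is not stated to use strand, so reads from the shared bases cannot be told apart. ADCY7 ranged over 562.3 to 624.4 in Caki2+Vector and, in Caki2+PBRM1, over 543.1 to 573.2 (log2 fold change -0.07, limma adjusted p = 0.409).

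PHF10 (BAF45a), the PHD finger subunit of PBAF, was at 394.8, 398.7 and 388.3 in Caki2+Vector and at 384.5, 391.1 and 370.1 in Caki2+PBRM1. These ranges overlapped, and the log2 fold change was -0.05 (95% interval -0.18 to 0.09, limma adjusted p = 0.66). PHF10 shares 485 exon bases with C6orf120 on the opposite strand, all of them in the canonical transcripts. C6orf120 had a log2 fold change of 0.03.

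ARID1A (BAF250a), the most frequently mutated BAF subunit in human cancers, was at 840.7, 883.4 and 865.4 in Caki2+Vector. It was at 908.8, 895.1 and 959.3 in Caki2+PBRM1, above all Caki2+Vector samples, with a log2 fold change of 0.09 (95% interval -0.01 to 0.20, limma adjusted p = 0.175). Its paralogue ARID1B (BAF250b) was at 276.4, 284.4 and 285.3 in Caki2+Vector and at 289.2, 302.2 and 292.1 in Caki2+PBRM1. These samples also did not overlap, yet the gap between the highest Caki2+Vector and the lowest Caki2+PBRM1 sample was small and the change did not pass the test (log2 fold change 0.06, 95% interval -0.09 to 0.21, limma adjusted p = 0.575). The median log2 fold change was 0.08 over the 2 BAF-specific and -0.08 over the 4 PBAF-specific members, beside -0.004 over all genes tested. The PBAF-specific median includes PBRM1 (3.763), the introduced gene. The other PBAF-specific members were at -0.223 (ARID2), -0.12 (BRD7) and -0.045 (PHF10).

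Of the 2 ATPases, SMARCA4 was at 1760, 1953 and 1981 in Caki2+Vector and at 1966, 2032 and 1968 in Caki2+PBRM1. The lowest value was that of Caki2+Vector replicate A, and the other 5 samples lay within 1953 to 2032. The log2 fold change was 0.07 (95% interval -0.02 to 0.16, limma adjusted p = 0.267). SMARCA2 was at 459.1, 480.9 and 490.2 in Caki2+Vector and at 501.5, 515.5 and 516.2 in Caki2+PBRM1. Its groups did not overlap, but the log2 fold change of 0.10 (95% interval -0.02 to 0.22, limma adjusted p = 0.227) did not pass the test.

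SMARCC2 (BAF170), a scaffold subunit on which the core of both complexes is built, lies at chr12:56556143-56583351 on the minus strand. Its normalized count was 1947, 1914 and 1839 in Caki2+Vector and 1593, 1627 and 1675 in Caki2+PBRM1. All 3 Caki2+PBRM1 samples were lower, with a log2 fold change of -0.22 (SE 0.04, 95% interval -0.31 to -0.13, limma adjusted p = 2.02e-04). SMARCC2 shares 719 exon bases with MYL6 on the opposite strand, although none in the canonical transcripts. MYL6, a myosin light chain, moved the other way, from 6998 to 7706 in Caki2+Vector to 8457 to 8675 in Caki2+PBRM1 (log2 fold change 0.20, limma adjusted p = 8.22e-05).

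SMARCD3 (BAF60c), known for its role in heart and muscle development, lies at chr7:150935850-150974982 on the minus strand. It had few reads, 53 to 91 per Caki2+Vector sample and 99 to 126 per Caki2+PBRM1 sample. Its normalized count was 73.8, 86.0 and 63.5 in Caki2+Vector and 107.2, 106.7 and 105.8 in Caki2+PBRM1. The Caki2+Vector samples (SD 11.2) spread more than the Caki2+PBRM1 samples (SD 0.7) and all lay below them. With so few reads and 3 samples per group, both SDs are imprecise. The log2 fold change was 0.52 (SE 0.13, 95% interval 0.26 to 0.79, limma adjusted p = 0.0028). SMARCD3 shares 1321 exon bases with CHPF2 on the opposite strand, of which 43 lie in the canonical transcripts. CHPF2, a chondroitin synthesis gene, also rose, from 373.9, 467.7 and 431.5 to 517.8, 525.3 and 559.0 (log2 fold change 0.34, limma adjusted p = 6.23e-04), and its part in the SMARCD3 value was not tested.

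**Figure D2:**
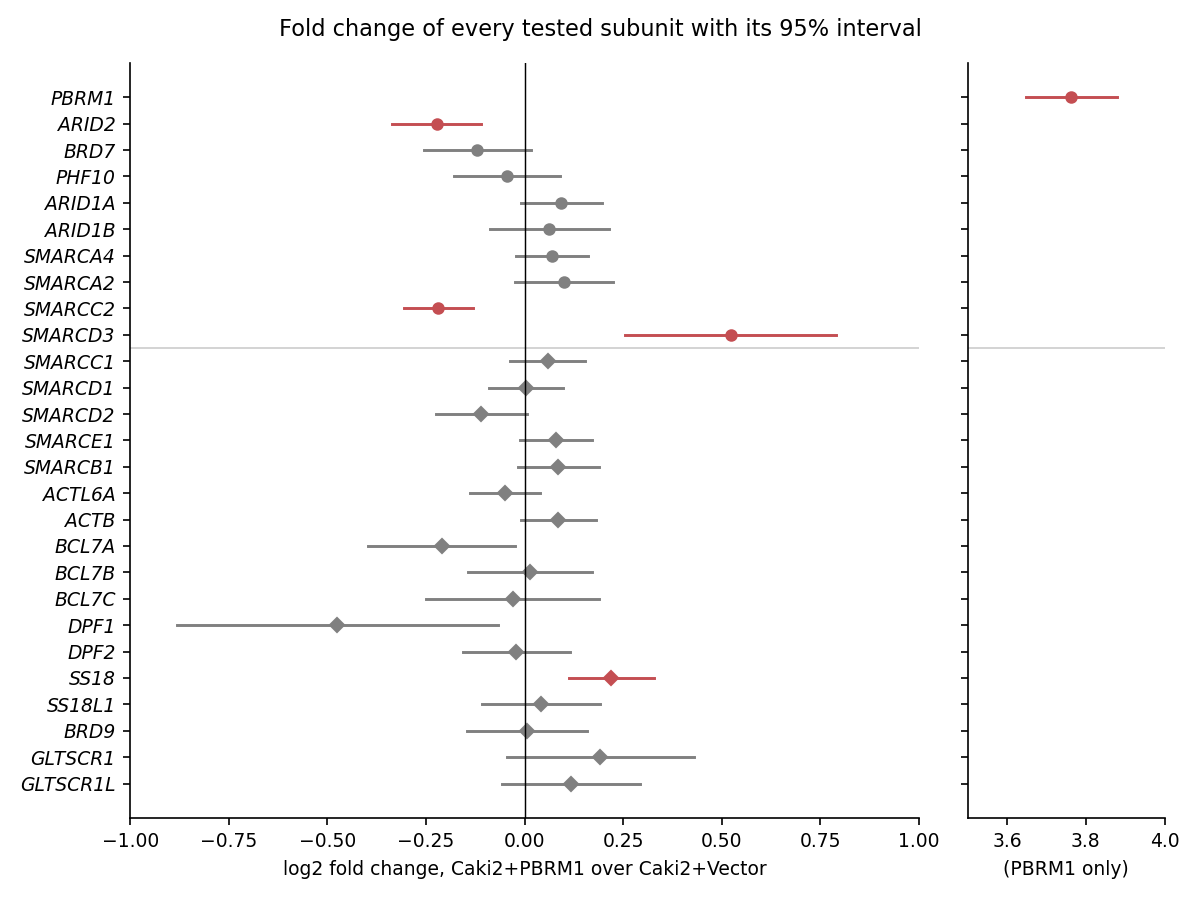
Log2 fold change (Caki2+PBRM1 over Caki2+Vector) with its 95% interval for the 10 members (circles, above the line) and the 17 tested remaining subunits (diamonds), with called genes in red and PBRM1 on an axis section of its own. Apart from PBRM1 at 3.76, the called genes are ARID2 (-0.22), SMARCC2 (-0.22), SMARCD3 (0.52) and SS18 (0.22).

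The remaining subunits of BAF, PBAF and the non-canonical complex ncBAF were taken as a list of 19 genes. ACTL6B, a neuronal actin-related subunit, was at 0 in all 6 samples, and DPF3, at 2.2 to 7.1, did not pass the filter on low values. Of the 17 tested, 1 rose and 0 fell by limma, against the 16.2% and 13.0% of all genes. At an unadjusted p under 0.05, 2 were lower (BCL7A and DPF1), and the share of all genes at that threshold was not computed. Of the 17, 0 were called lower by edgeR, 0 by DESeq2 and 1 by limma voom. Over all 13303 genes tested these methods called 1798, 1033 and 1795 lower. The 17 remaining subunits had a median log2 fold change of 0.01. Of them, 16 changed by less than 0.3 on the log2 scale, as did 78.6% of all genes tested.

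SS18L1, DPF1, BCL7A and SMARCB1 are named here after their values were seen. SS18, a BAF and ncBAF subunit known from its fusion in synovial sarcoma, was the gene that rose. It was at 688.2, 675.5 and 673.6 in Caki2+Vector and at 807.0, 789.3 and 776.3 in Caki2+PBRM1, with no overlap (log2 fold change 0.22, SE 0.05, limma adjusted p = 0.0019). Its paralogue SS18L1 had a log2 fold change of 0.04 (95% interval -0.11 to 0.19). The PHD finger subunit DPF1 was lower in all 3 Caki2+PBRM1 samples, at 27.1, 24.0 and 27.7 against 34.1, 35.9 and 40.8. With a log2 fold change of -0.47 (SE 0.20, limma adjusted p = 0.0731), it did not pass the test. BCL7A had a log2 fold change of -0.21 (limma adjusted p = 0.0806) with overlapping groups. SMARCB1 (SNF5), the subunit lost in rhabdoid tumors, was at 820.8 to 878.5 in Caki2+Vector and at 904.4 to 910.2 in the Caki2+PBRM1 samples, without passing the test (log2 fold change 0.09, 95% interval -0.02 to 0.19). It shares 2923 exon bases with DERL3 on the opposite strand, of which 2747 lie in the canonical transcripts. DERL3 was at 38.6 to 47.9 in all samples.

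Subunits that are paralogues or counterparts in different complexes were compared, as were PBRM1 and ARID2, which are both in PBAF. The log2 ratio of their normalized counts was taken within each sample, where size factors cancel apart from the pseudocount of 1. Of 10 pairs, 5 did not overlap between groups. For these 5 the two-sided exact permutation p was 0.1, the smallest that 3 against 3 samples allow, and 0.2 after Benjamini-Hochberg adjustment over the 10 pairs, so none could pass 0.05. The pairs also share genes, so they are not independent of each other. Each of the 5 pairs without overlap holds a member that was called on its own, and PBRM1 to ARID2 holds the introduced gene. Their count thus partly restates those calls. Of all single genes tested, 22.1% were higher without overlap and 19.6% lower, and the share over other gene pairs was not computed.

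ARID2 fell against both BAF-specific ARID subunits without overlap of the samples. The log2 ratio of ARID2 to ARID1A was -0.25, -0.29 and -0.27 in Caki2+Vector and -0.58, -0.60 and -0.59 in Caki2+PBRM1. The difference was -0.32, and the SDs within the groups were 0.02 and 0.01. An SD from 3 samples is imprecise. The limma SEs of the log2 fold changes of ARID2 and ARID1A alone were larger, at 0.055 and 0.051. ARID2 to ARID1B went from 1.34 ± 0.01 (SD, n = 3) to 1.05 ± 0.08 (SD, n = 3). The ratio of ARID1B to ARID1A overlapped between groups, with a difference of -0.03 (exact permutation p = 0.6). PBRM1 to ARID2, both in PBAF, went from -1.93 ± 0.07 (SD, n = 3) to 2.05 ± 0.05 (SD, n = 3).

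SMARCC2 fell against its paralogue SMARCC1 (BAF155), from a log2 ratio of 0.80 ± 0.05 to 0.52 ± 0.04 (SD, n = 3 each). SMARCC1 itself was at 1076 to 1117 in Caki2+Vector and at 1109 to 1156 in the Caki2+PBRM1 samples (limma adjusted p = 0.384). SMARCD3 rose against SMARCD1 (BAF60a), from -3.88 ± 0.21 to -3.36 ± 0.02 (SD, n = 3 each), while SMARCD2 to SMARCD1 overlapped between groups (difference -0.11, exact permutation p = 0.3). The log2 ratio of SMARCA2 to SMARCA4 was -1.99 ± 0.05 and -1.96 ± 0.03 (SD, n = 3 each, exact permutation p = 0.3). BRD9 to BRD7, which sets ncBAF against PBAF, differed by 0.13 (exact permutation p = 0.5), and DPF2 to PHF10, the BAF and PBAF PHD finger subunits, by 0.02 (exact permutation p = 0.6). The difference of BRD9 to BRD7 was 0.03 without Caki2+Vector replicate A and 0.20 without Caki2+Vector replicate B. Without replicate A of Caki2+Vector that of SMARCD2 to SMARCD1 was -0.17 and that of SMARCA2 to SMARCA4 0.06.

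**Figure D3:**
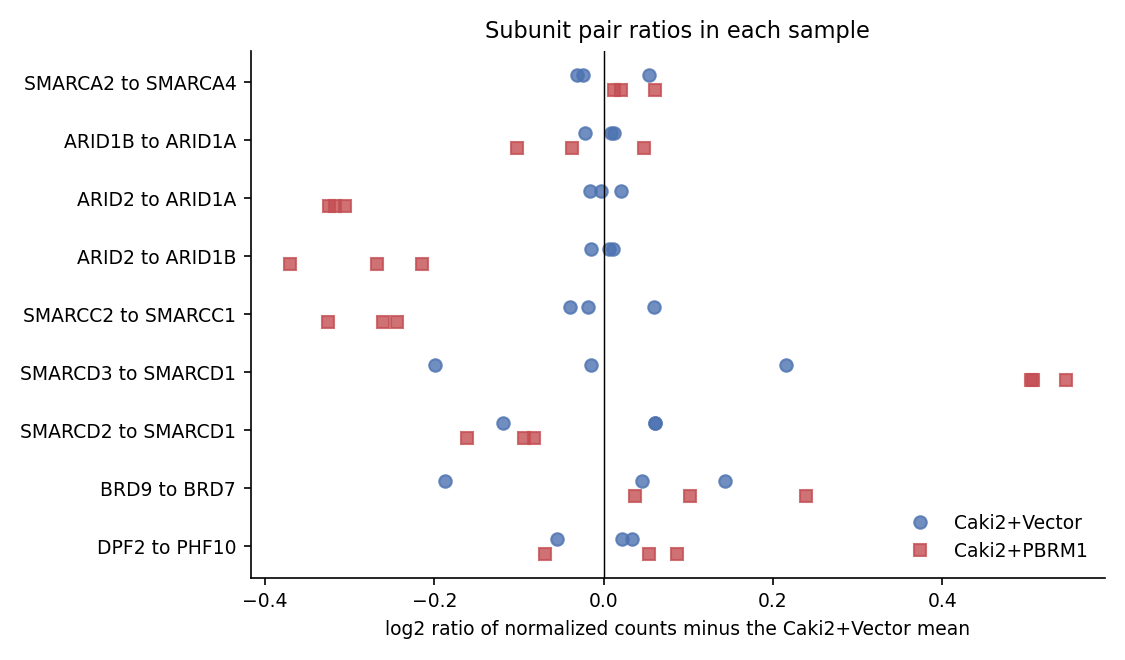
Log2 ratio of normalized counts of 9 subunit pairs in each sample, minus the mean of the Caki2+Vector samples, for Caki2+Vector (blue circles) and Caki2+PBRM1 (red squares). The Caki2+PBRM1 samples lie apart for ARID2 to ARID1A (difference -0.32), ARID2 to ARID1B (-0.28), SMARCC2 to SMARCC1 (-0.28) and SMARCD3 to SMARCD1 (0.52), and PBRM1 to ARID2 (3.99) is not drawn.

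Levels of different genes were compared per kb of gene length, with 3 definitions of length: all exons merged, the longest transcript and the canonical transcript. In Caki2+Vector, SMARCC2 had the highest level of the members and SMARCA4 the second highest under each definition, with 373 ± 10.9 and 340 ± 21.6 normalized counts per kb (SD, n = 3) of the canonical transcript. The difference between them was about the size of their summed SDs. ARID1A (100 ± 2.49), PHF10 (182 ± 2.41), ARID2 (83.2 ± 1.02), BRD7 (82.3 ± 5.58) and SMARCA2 (82.9 ± 2.77) lay in the middle, and the last 3 did not differ beyond their SDs with the canonical length. Over merged exons SMARCA2 was lower than BRD7, at 25.0 against 51.9. SMARCD3 (39.0 ± 5.89), ARID1B (27.4 ± 0.471) and PBRM1 (23.3 ± 0.922) held the 3 lowest places under each definition, in an order that changed with it.

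In Caki2+PBRM1, PBRM1 moved among the 3 highest members. Its level per kb of the canonical transcript was 318 ± 15.9 (SD, n = 3), beside 321 ± 8.09 for SMARCC2 and 357 ± 6.71 for SMARCA4. The PBRM1 and SMARCC2 values did not differ beyond their SDs, whereas over merged exons PBRM1 was the highest, at 264 against 178 for SMARCC2. Its percentile among all tested genes with a length went from 22.2 to 83.6 with the canonical length and from 27.7 to 88.8 with merged exons. The level of PBRM1 per kb relative to ARID2 went from 0.281 to 4.47 with the canonical length and from 0.335 to 5.34 with merged exons. The length of the RNA made from the insert is not given in the sources used here, so these levels per kb are approximate.

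Within paralogue families, SMARCA4 was the major ATPase. Of the summed level per kb of the canonical transcripts of SMARCA2 and SMARCA4 it held 80.4% ± 0.508 in Caki2+Vector and 80.0% ± 0.285 in the Caki2+PBRM1 samples (SD, n = 3 each). Over the ARID subunits ARID1A, ARID1B and ARID2, the share of ARID2 went from 39.4% ± 0.26 to 34.4% ± 0.343 and that of ARID1A from 47.6% ± 0.301 to 51.8% ± 0.331 (SD, n = 3 each). SMARCC2 made up 68.4% ± 0.777 of the SMARCC1 and SMARCC2 sum in Caki2+Vector and 64.1% ± 0.694 of it in Caki2+PBRM1 (SD, n = 3 each). SMARCD3 made up 5.81% ± 0.79 and 8.38% ± 0.129 of the SMARCD sum. It remained the smallest of the 3 SMARCD genes in both groups under each definition of length. The order of ARID2 and ARID1A in Caki2+Vector depended on the definition. Over merged exons the share of ARID2 went from 48.9% to 43.5% and that of ARID1A from 45.9% to 50.9%.

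**Figure D4:**
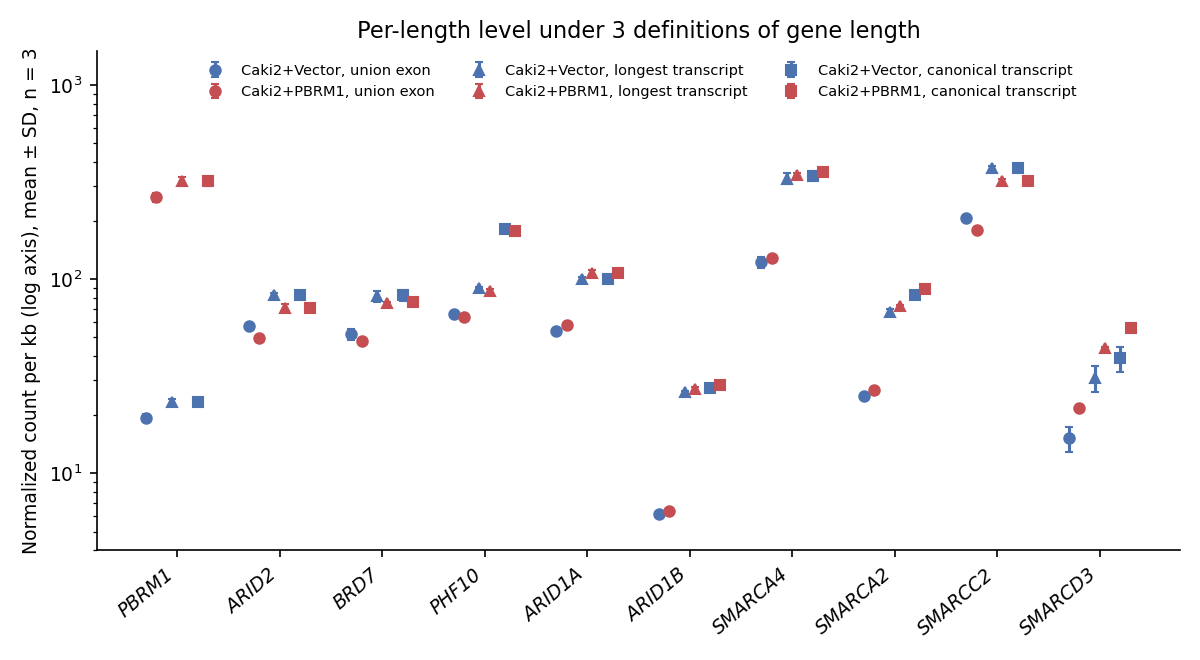
Normalized count per kb (log axis, mean ± SD, n = 3) of the 10 members in Caki2+Vector (blue) and Caki2+PBRM1 (red) with 3 definitions of gene length (circles, merged exons; triangles, longest transcript; squares, canonical transcript). PBRM1 goes from 23.3 to 318 with the canonical length, and the level of ARID1B depends most on the definition.

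As a comparison outside BAF, 18 ATPases of other Snf2-type remodelers (ISWI, CHD, INO80 and related genes) were counted. CHD5 did not pass the filter. Of the 17 tested, 2 rose and 3 fell, and their log2 fold changes ran from -0.21 to 0.38. The called gene with the highest fold change was CHD7 (log2 fold change 0.38, limma adjusted p = 0.0146) and the one with the lowest was HELLS (-0.21, limma adjusted p = 0.0263), each without overlap between the groups. For comparison, the 27 tested BAF, PBAF and ncBAF subunits included 3 higher genes, the introduced PBRM1 among them, and 2 lower genes. Over all genes tested 16.2% were called higher and 13.0% lower. No test compared the lists.

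The share of higher genes among all called genes depended on the scaling. With the deposited size factors 55.4% of the called genes were higher, and on log2(CPM + 1) 36.9% were, while the median log2 fold change over all genes moved from -0.004 to -0.054. Under that scaling ARID2 (-0.27), SMARCC2 (-0.27), SMARCD3 (0.43) and SS18 (0.16) kept their calls, and BRD7, SMARCD2, BCL7A and DPF1 were called lower as well.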

How the data were processed

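RNA-Seq of 3 Caki2+Vector and 3 Caki2+PBRM1 samples was analysed, with groups and replicate letters taken from the labels. The authors' alignment to hg19 was made with STAR and their read counting with HTSeq, on genes of the UCSC annotation. The deposited values are a signal per gene, namely counts normalized by the authors with DESeq2, without division by gene length. In every file 100% of the values were whole multiples of a single step (tolerance 0.01 reads), so whole reads were recovered, with size factors from 0.8343 to 1.1915.

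The filter asked for a normalized count of 10 or more in 3 or more samples. On log2(normalized count + 1) the groups were compared with limma 3.58.1 (trend and robust) in R 4.3.3, and genes with a Benjamini-Hochberg adjusted p under 0.05 were called. This scale understates the change of low genes. At this depth log2 fold changes had a median SE of 0.083. At the same threshold limma called 3886 genes, edgeR 4.0.16 (quasi-likelihood on the recovered reads) 3975 and DESeq2 1.42.0 2517. Pair ratios were compared with exact permutation tests (scipy 1.17.1). The fit was tested on simulated data. The authors call the replicates biological, but the labels do not say whether they came from separate cultures. The p-values thus measure only the spread between these samples.

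Gene lengths, positions and overlaps came from GENCODE 44 mapped to GRCh37. GLTSCR1 and GLTSCR1L were matched as BICRA and BICRAL. All members were named; the remaining subunits were named where past the threshold, at 0 or a partner in a ratio (SS18L1, DPF1, BCL7A and SMARCB1, and those called only under an alternative, were added after their values were seen), the called ATPases of other remodelers by highest and lowest fold change, and overlapping neighbours by position. One cell type marker is not reported here. The members and lists were chosen with earlier results of these data known.

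Alternatives were edgeR, DESeq2 and voom on recovered reads, TMM factors, log2(CPM + 1), pseudocounts of 0.5 and 4, other filters, the replicate letter as a block, an adjusted p under 0.01 and leaving out each replicate. The canonical transcript length was added after seeing the data. Computations outside R used Python 3.11.15.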

Additional observations from a re-analysis of the deposited data

How the results depend on the processing

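The 2 higher members (PBRM1 and SMARCD3) and the 2 lower ones (ARID2 and SMARCC2) kept their calls and direction in all 17 alternatives, as did SS18. The log2 fold change of ARID2 ranged from -0.27 to -0.20 (limma adjusted p at most 0.0279), that of SMARCC2 from -0.27 to -0.20 (at most 0.0056), and that of SMARCD3 from 0.41 to 0.63 (at most 0.0300, with DESeq2). The count of lower members was 3 in place of 2 on log2(CPM + 1), through BRD7.

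The genes called over the whole table were 2517 with DESeq2 and 2521 at an adjusted p under 0.01, against 3886, and 2856 to 4170 when a replicate was left out. The remaining subunits called lower were 1 with limma voom (BCL7A) and 3 on log2(CPM + 1), against 0, and those called higher were 2 with the replicate block (ACTB added), against 1. When a replicate was left out, 1 to 2 remaining subunits were called higher and 0 to 1 lower. Without Caki2+Vector replicate A these were SS18 and SMARCE1 higher and SMARCD2 lower. Without Caki2+Vector replicate C they were SS18 and ACTB higher and BCL7A lower, and without Caki2+PBRM1 replicate A BCL7A was lower. The cause was not tested.

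Small fold changes of 3 partner genes changed sign without a call. On log2(CPM + 1) SMARCD1 was at -0.051 (0.003 with the deposited size factors) and BRD9 at -0.048 (0.006). When a replicate was left out, SMARCD1 ran from -0.005 to 0.012, BRD9 from -0.063 to 0.052 and DPF2 (-0.021) from -0.059 to 0.008. The 5 pairs that did not overlap between groups kept their direction with other pseudocounts and with each replicate left out. When a replicate was left out, the difference of SMARCD3 to SMARCD1 ran from 0.419 to 0.626, that of BRD9 to BRD7 from 0.032 to 0.197, that of ARID1B to ARID1A from -0.07 to 0.004 and that of DPF2 to PHF10 from -0.008 to 0.07, so the last 2 changed sign. Same-letter samples did not deviate together (r from -0.008 to 0.014), so no large shift shared by letter was seen. These values cannot show whether the samples were handled in pairs. With the replicate block 4107 genes were called and no member's call changed. Few reads limit the precision of SMARCD3 and DPF1 (SE 0.13 and 0.20).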
